A study of Homo sapiens with 8 samples.

Results

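Ribosome biogenesis and nucleolar genes, 42 in number, were followed through ARP1 and H929, which are human lines of multiple myeloma, the tumour of plasma cells. The genes were chosen by name as nucleolar, small nucleolar ribonucleoprotein (snoRNP), rRNA processing and RNA polymerase I genes, many of them known as targets of the transcription factor MYC, out of 24351 genes in the expression table. All 42 were among the 14905 genes that were tested, which had at least 1 FPKM (a count of fragments divided by transcript length and by the library's total) in at least 2 libraries. Each line gave 1 poly(A)-selected library for each of 4 genotypes, which were CHEK1 overexpression, the control of overexpression, CHEK1 knockdown and the control of knockdown. Each genotype therefore had 2 libraries, 1 from ARP1 and 1 from H929, and the lines served as replicates. CHEK1 encodes the checkpoint kinase that halts the cell cycle when DNA is damaged or replication stalls. The labels give neither the means by which CHEK1 was raised or lowered nor whether a line was 1 clone. They also do not say whether the overexpression arm (overexpression and its control) and the knockdown arm (knockdown and its control) were grown or sequenced together.

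Ribosomes are built in the nucleolus, where RNA polymerase I transcribes the precursor of the ribosomal RNAs. Box C/D and box H/ACA snoRNPs then methylate and pseudouridylate that precursor, the small subunit processome folds and cuts its 18S part, and a separate set of factors assembles the large subunit. Myeloma cells make large amounts of secreted protein, many myeloma lines express MYC strongly, and the genes of this pathway are among the best known MYC targets, often through the E-box CACGTG near the start of transcription.

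Promoter windows from 250 bases before to 50 after the start were found for 34 of the 42 genes in RefSeq (GRCh38.p14), those not matched being NOP58, NOLC1, TCOF1, RRP12, BOP1, RRS1, RRP1B and DDX18. CACGTG, which reads the same on both strands, was in 15 of these 34 windows (44.1%), in 10.2% of the windows of 9953 tested genes and in 7.43% of all 27305 windows. Since many of the 42 genes were known as MYC targets when chosen, this share is not independent of the choice. The core CGGAAG of ETS factors, searched on both strands and unable to overlap CACGTG by its letters, was in 17 of the 34 windows (50.0%), in 33.5% of the tested genes' windows and in 19.9% of all windows. A match is a description of the letters and not a binding site. Stretches from 100 bases before to 29 after the start are shown for 5 genes, with CACGTG in capitals. RRP9, UTP20 and UTP4 are small subunit processome genes whose lowest library of the 8 was the ARP1 one labelled knockdown, and FBL and NOP10 are the genes whose levels followed the other genes least. They were chosen for display after their values were seen. RRP9 lies on the minus strand (chr3:51941875-51942004), UTP20 on the plus strand (chr12:101280005-101280134), UTP4 on the plus strand (chr16:69132549-69132678), FBL on the minus strand (chr19:39846350-39846479) and NOP10 on the minus strand (chr15:34343107-34343236).
RRP9: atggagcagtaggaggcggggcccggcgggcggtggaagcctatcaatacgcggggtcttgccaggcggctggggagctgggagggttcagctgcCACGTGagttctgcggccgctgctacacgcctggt
UTP20: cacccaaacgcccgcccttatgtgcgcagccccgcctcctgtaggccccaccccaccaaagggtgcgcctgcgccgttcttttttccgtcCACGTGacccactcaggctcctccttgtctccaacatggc
UTP4: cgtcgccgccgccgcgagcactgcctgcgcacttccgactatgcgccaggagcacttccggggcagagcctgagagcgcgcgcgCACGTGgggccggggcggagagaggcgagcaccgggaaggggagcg
FBL: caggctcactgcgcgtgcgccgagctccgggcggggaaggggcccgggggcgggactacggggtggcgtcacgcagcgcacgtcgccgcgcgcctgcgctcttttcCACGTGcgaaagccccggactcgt
NOP10: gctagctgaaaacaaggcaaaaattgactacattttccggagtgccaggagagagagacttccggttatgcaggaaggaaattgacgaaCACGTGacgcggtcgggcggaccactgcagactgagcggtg
The motif begins 5 bases before the start in RRP9, 10 in UTP20, 16 in UTP4 and 11 in NOP10, and 6 bases after the start in FBL. The NOP10 window holds another CACGTG outside the stretch shown. All 5 genes shown hold the motif, so they do not compare genes with and without it. CACGTG was absent from the windows of NOP56 and DDX10, whose levels followed the other genes closely. It was also absent from those of NPM1, PPAN and DDX21, which followed less closely. A link between the motif and the levels was not tested.

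Summed FPKM per library was 631871 to 693299, and 13084 to 14092 genes reached 1 FPKM. The plasma cell and myeloma markers were all tested (10 of 10) and summed to 1658 to 2870 FPKM per library. Of the markers of other cells, 0 of 5 adipocyte genes, 0 of 4 erythroid genes, 1 of 6 T and NK cell genes, 2 of 5 myeloid genes and 4 of 6 stromal and epithelial genes were tested, and each of these lists summed to 17.1 FPKM or less in every library. CHEK1 itself had 114 FPKM in the ARP1 overexpression library, 78.2 in its control, 51.6 in the ARP1 library with the knockdown label and 61.0 in its control. In H929 it had 107 FPKM in the overexpression library, 81.6 in its control, 84.8 in the library labelled knockdown and 80.7 in its control. CHEK1 was thus higher in overexpression in both lines, but the H929 library labelled knockdown was not lower than its control. Neither difference passed (limma, overexpression at a log2 fold change of 0.47 ± 0.20 SE with an adjusted p = 0.994, knockdown at -0.08 ± 0.20 SE with an adjusted p = 0.903). The ARP1 library labelled knockdown stood further from its control over all genes than the H929 one: at a fold of 1.5, 13.5% of tested genes were lower and 12.4% higher in ARP1, and 4.78% lower and 4.72% higher in H929.

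The genes covered a wide range of levels. NPM1, the nucleolar chaperone nucleophosmin, had the highest level at a mean of 1526 FPKM over the 8 libraries (rank 66 among all genes), followed by WDR74 at 414, the nucleolar protein nucleolin (NCL) at 368, the nucleoside diphosphate kinase NME1 at 238 and the box H/ACA protein NHP2 at 231. EBNA1BP2, a large subunit assembly factor, had the lowest mean at 5.18 FPKM, nearly all of it in 1 transcript. Over the 42 genes, the median level in ARP1 was 64.7 FPKM in overexpression, 60.4 in its control, 34.7 in the library labelled knockdown and 47.5 in its control. In H929 that median was 59.6 FPKM in overexpression, 58.5 in its control, 45.2 in the library labelled knockdown and 41.4 in its control. The overexpression arm was therefore the higher one in both lines, and the ARP1 library labelled knockdown was the lowest of the 8. In bulk RNA, fewer cells of a kind and less RNA per cell cannot be told apart, and FPKM, being scaled to a library's total, does not show a change in total RNA per cell.

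**Figure D1:**
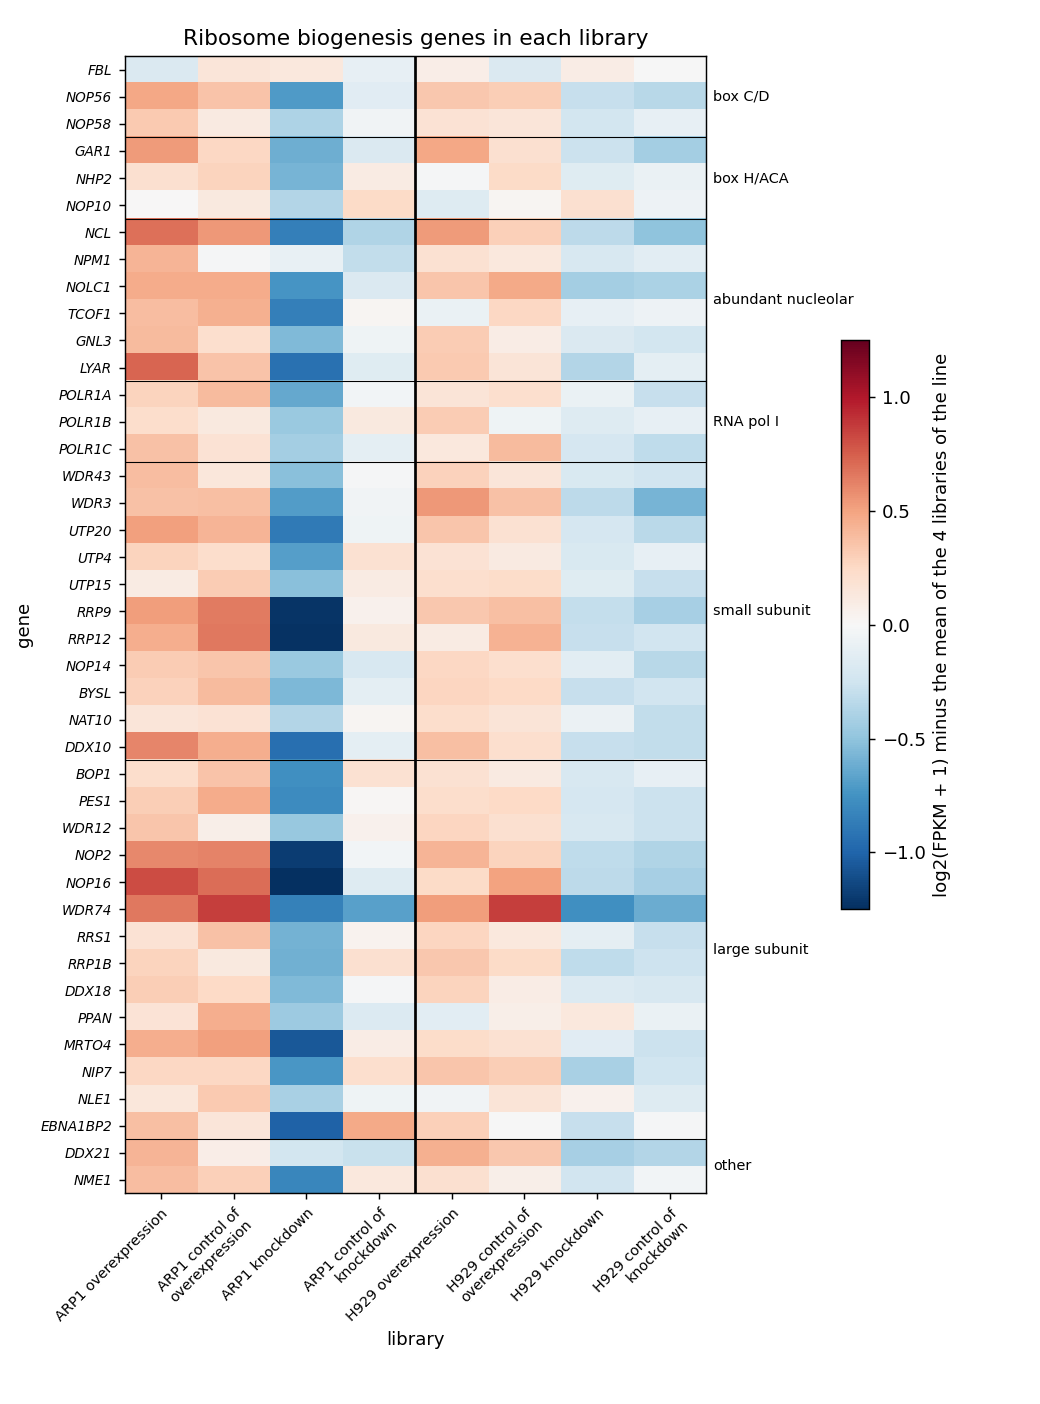
Heat map of log2(FPKM + 1) of the 42 genes (down the page, by role) in the 8 libraries (across), each as the difference from the mean of the 4 libraries of its line. The darkest shades stand for the ends of the scale and beyond, red marks high and blue low libraries, and the ARP1 library labelled knockdown is blue for nearly every gene and pale red for FBL.

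Overexpression set beside its own control asks whether the ribosome biogenesis genes follow a raised CHEK1. Differences were small and in both directions: the median over the 42 genes was a log2 fold change of 0.02, against -0.01 over all genes tested, with 0.00 in ARP1 and 0.06 in H929. None of the 42 passed (limma, adjusted p under 0.05, n = 2 lines per genotype), while 1 of all tested genes did (0.00671%). Likewise 0 of the 42 had an unadjusted p under 0.05 (4.45% of all genes). Both lines gave a higher value for 19 genes (28.0% of all genes) and a lower value for 11 (30.1% of all genes), and 0 genes differed by 1.5-fold or more, as a ratio of FPKM + 1, in either line. The shares of all genes beyond that fold were 4.56% higher and 6.91% lower in ARP1, and 3.73% higher and 5.2% lower in H929.

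Among the box H/ACA core genes, values lay on both sides of 0. GAR1, a box H/ACA protein, had 113 FPKM in ARP1 overexpression and 93.6 in its control, and 147 in H929 overexpression and 121 in its control. The fitted log2 fold change was 0.28 ± 0.16 SE (adjusted p = 0.994). Its partners NHP2 and NOP10 were lower in both lines, with fitted values of -0.16 and -0.14. Of the abundant nucleolar proteins, NCL was higher in both lines with 508 FPKM in ARP1 overexpression against 461 in its control, and 541 in H929 overexpression against 461 in its control. LYAR, a nucleolar protein tied to cell growth, had 37.4 FPKM in ARP1 overexpression against 28.7 in its control, and 36.5 in H929 overexpression against 32.6 in its control. GNL3 (nucleostemin) was at 0.18 and 0.22 in ARP1 and H929. All of these stayed far from the threshold, with the adjusted p of every one of the 42 genes at 0.994 or above.

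Processing factors were likewise mixed. The helicase DDX10 was at 0.15 in ARP1 and 0.16 in H929, and EBNA1BP2 at 0.22 in ARP1 and 0.30 in H929. RRP12, an export and maturation factor of the subunits, was at -0.20 in ARP1 and -0.34 in H929, the large subunit factors PPAN at -0.28 and -0.21 and NLE1 at -0.18 and -0.21. PPAN overlaps the annotated read-through gene PPAN-P2RY11, so its reads are uncertain.

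Knockdown set beside its own control gave a different picture in each line. In ARP1, 39 of the 42 genes were lower in the library labelled knockdown, with a median log2 ratio of -0.61 (-0.03 over all genes), and 23 were lower by 1.5-fold or more (13.5% of all genes). In H929 the median was 0.05 (0.00 over all genes), 25 genes were higher and 17 lower, and 0 were lower by 1.5-fold or more (4.78% of all genes). The ARP1 library labelled knockdown was the lowest of the 4 ARP1 libraries for 39 genes (33.8% of all genes), and the H929 one the lowest of the 4 H929 libraries for 17 (23.3% of all genes). Both lines gave a lower value for 15 genes (28.9% of all genes) and a higher value for 1, FBL (27.2% of all genes). With 1 library per line and genotype, these within-line values have no replicate check. The fit over both lines gave a median of -0.25 (-0.02 over all genes) with 40 of 42 values below 0. In it 0 of the 42 passed (limma, adjusted p under 0.05), against 2 of all genes (0.0134%). At an unadjusted p under 0.05, 5 genes were lower (UTP4, BOP1, NIP7, EBNA1BP2 and NME1) and 0 higher, against 4.72% of all genes lower and 4.42% higher. Without the ARP1 library labelled knockdown, the fitted median was 0.02, with 24 values above 0.

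**Figure D2:**
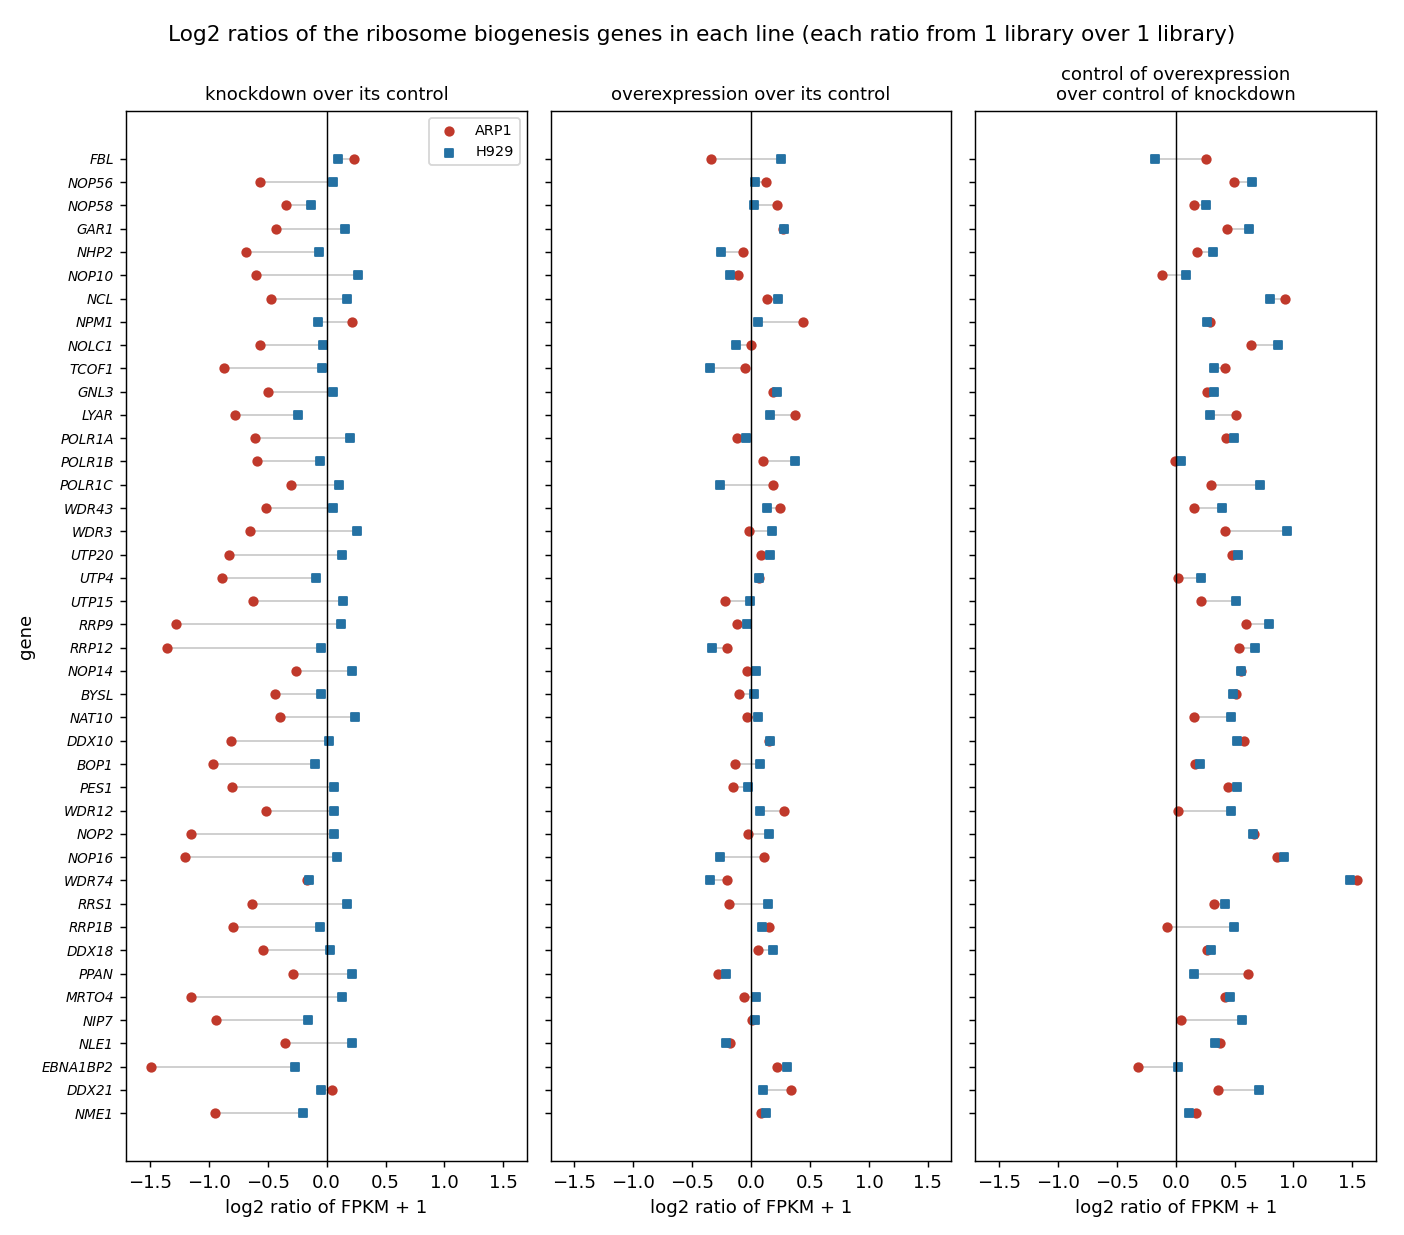
Log2 ratio of FPKM + 1 for each of the 42 genes (down the page) in ARP1 (red circles) and H929 (blue squares), for knockdown over its control (left), overexpression over its control (middle) and the control of overexpression over the control of knockdown (right). On the left the ARP1 points reach -1.49 while the H929 points stay between -0.27 and 0.26, and on the right 37 of 42 genes lie above 0 in both lines.

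Box C/D and H/ACA core genes took part in this in ARP1, except for FBL, the rRNA methyltransferase fibrillarin. NOP56, a box C/D scaffold protein, had 42.0 FPKM in the ARP1 library with the knockdown label and 62.6 in its control, and 64.7 in the H929 library labelled knockdown and 62.2 in its control. NOP58, its partner, had 42.2 FPKM in the ARP1 library with the knockdown label and 53.8 in its control, and 49.0 in the H929 library labelled knockdown and 53.8 in its control. FBL alone of the 42 was higher in both lines, with 38.3 FPKM in the ARP1 library with the knockdown label against 32.5 in its control, and 23.0 in the H929 library labelled knockdown against 21.4 in its control (fitted log2 fold change 0.17 ± 0.17 SE, adjusted p = 0.749). GAR1, NHP2 and NOP10 had ARP1 log2 ratios of -0.43, -0.68 and -0.60 and H929 ratios of 0.16, -0.07 and 0.26.

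Abundant nucleolar proteins were split. NCL had 174 FPKM in the ARP1 library with the knockdown label and 242 in its control, and 297 in the H929 library labelled knockdown and 264 in its control, so the lines went opposite ways. NPM1 was the other way round, with 1494 FPKM in the ARP1 library with the knockdown label against 1289 in its control, and 1232 in the H929 library labelled knockdown against 1295 in its control. NPM1 has 45 annotated pseudogenes named after it, so the split of its reads is uncertain. LYAR was lower in both lines, at 11.1 FPKM in the ARP1 library with the knockdown label against 19.8 in its control and 22.2 in the H929 library labelled knockdown against 26.4 in its control (log2 fold change -0.51 ± 0.23 SE, adjusted p = 0.566). TCOF1 (treacle), NOLC1 and GNL3 had ratios of -0.87, -0.56 and -0.50 in ARP1 and of -0.04, -0.03 and 0.05 in H929. Among the RNA polymerase I subunits, POLR1B had ratios of -0.59 in ARP1 and -0.06 in H929, POLR1A of -0.61 and 0.20, and POLR1C, which RNA polymerase III also holds, of -0.30 and 0.11.

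Small subunit processome genes (11) were all lower in the ARP1 library labelled knockdown, from -0.26 to -1.36 with a median of -0.65. In H929 they lay between -0.09 and 0.26. UTP4 had 35.1 FPKM in the ARP1 library with the knockdown label against 65.7 in its control, and 51.3 in the H929 library labelled knockdown against 54.7 in its control (log2 fold change -0.49 ± 0.20 SE, adjusted p = 0.54). WDR43 had 64.0 FPKM in the ARP1 library with the knockdown label against 91.7 in its control, and 93.2 in the H929 library labelled knockdown against 89.9 in its control. The largest ARP1 ratios of this class, picked out after the values were seen, belonged to RRP12 (11.0 FPKM in the library labelled knockdown against 29.9 in its control) and RRP9, a U3 snoRNP protein (12.3 against 31.1). In H929 the same pair was near its control, RRP12 at 23.1 FPKM in the library labelled knockdown against 23.9 and RRP9 at 29.8 against 27.3. The remaining ones, UTP20, DDX10, WDR3, UTP15, BYSL, NAT10 and NOP14, had ARP1 ratios between -0.83 for UTP20 and -0.26 for NOP14. Their H929 ratios were -0.05 to 0.26.

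Large subunit genes (14) were also all lower in the ARP1 library labelled knockdown, from -0.17 to -1.49 with a median of -0.80. In H929 they lay between -0.27 and 0.22. EBNA1BP2 had the lowest ratio in both lines, with 1.74 FPKM in the ARP1 library with the knockdown label against 6.68 in its control, and 4.21 in the H929 library labelled knockdown against 5.28 in its control (log2 fold change -0.88 ± 0.30 SE, adjusted p = 0.532). NIP7, needed for maturation of the precursor rRNA, had 19.5 FPKM in the ARP1 library with the knockdown label against 38.4 in its control, and 22.3 in the H929 library labelled knockdown against 24.9 in its control (log2 fold change -0.55 ± 0.20 SE, adjusted p = 0.538). PES1, with BOP1 and WDR12 a part of the PeBoW complex of large subunit assembly, had 51.1 FPKM in the ARP1 library with the knockdown label against 89.9 in its control, and 63.4 in the H929 library labelled knockdown against 60.8 in its control. Its partners BOP1 and WDR12 had ARP1 ratios of -0.97 and -0.52 and H929 ratios of -0.10 and 0.07. NME1 was lower in both lines, at 128 FPKM in the ARP1 library with the knockdown label against 249 in its control and 201 in the H929 library labelled knockdown against 231 in its control (log2 fold change -0.57 ± 0.21 SE, adjusted p = 0.538), and it overlaps the read-through gene NME1-NME2. The helicase DDX21 differed little, with 117 FPKM in the ARP1 library with the knockdown label against 113 in its control, and 92.2 in the H929 library labelled knockdown against 95.1 in its control. Of the rest, chosen for naming after their values were seen, NOP16, MRTO4 and NOP2 had ARP1 ratios of -1.20, -1.15 and -1.15 and H929 ratios of 0.09, 0.13 and 0.06. WDR74 was at -0.17 in ARP1 and -0.15 in H929. RRP1B, RRS1, DDX18, NLE1 and PPAN had ARP1 ratios of -0.80 to -0.29. Their H929 ratios were -0.06 to 0.22.

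How far the ARP1 values passed a test depended on which library was kept. Without the H929 library labelled knockdown, 15 of the 42 genes were called, all lower (NHP2, TCOF1, LYAR, UTP20, UTP4, RRP9, RRP12, DDX10, BOP1, PES1, NOP2, NOP16, MRTO4, EBNA1BP2 and NME1), among 837 called genes of all (5.62%), and the median was -0.53. In that fit RRP12 was at -1.34 ± 0.14 SE (adjusted p = 0.0278) and the rRNA methyltransferase NOP2 at -1.12 ± 0.13 SE (adjusted p = 0.0278), with the lone ARP1 library assumed to vary like the other genotypes. In the fit without the ARP1 library labelled knockdown, RRP12 was at -0.07 and NOP2 at 0.03. Whether the effect of knockdown differs between the lines was not tested, since each line has 1 library per genotype.

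The controls of the arms were also compared with each other. The control of overexpression was above the control of knockdown for 37 of the 42 genes in both lines (30.3% of all genes) and below it in both lines for 0 (32.9% of all genes). The median log2 difference was 0.38 in the fit (0.37 in ARP1, 0.48 in H929, and -0.01 over all genes). By 1.5-fold or more, 7 genes were higher in ARP1 (6.87% of all genes) and 12 in H929 (5.54% of all genes), and 0 were lower in either line (9.33% of all genes in ARP1 and 8.19% in H929). In the fit, 1 of the 42 passed (limma, adjusted p under 0.05, WDR74), against 8 of all genes (0.0537%). At an unadjusted p under 0.05 there were 11, all higher (4.64% of all genes were higher at that p). For 28 of the 42 genes, all 4 libraries of overexpression and its control lay above all 4 of knockdown and its control, and this held for 4.8% of all genes. Taken within a line, overexpression and its control were both above knockdown and its control for 36 genes in ARP1 (21.7% of all genes), 37 in H929 (25.0% of all genes) and 33 in both lines (10.5% of all genes). The arm and anything else that differed between the arms cannot be told apart. The overexpression, knockdown and control comparisons share control libraries, so none of them is independent of the others.

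**Figure D3:**
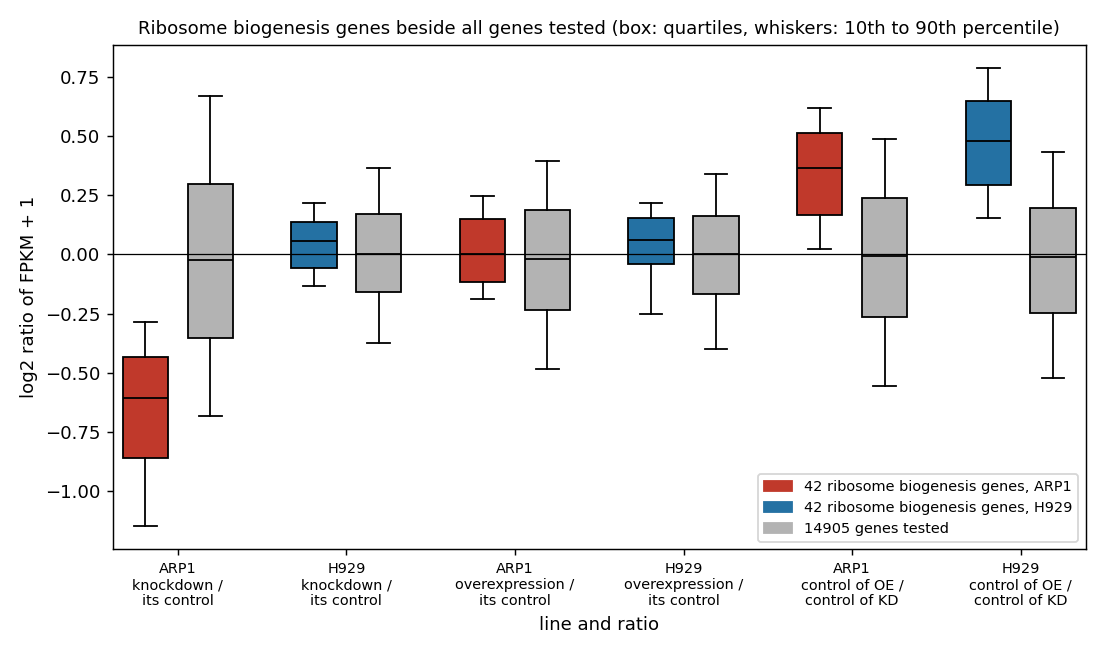
Log2 ratios of FPKM + 1 of the 42 ribosome biogenesis genes (red in ARP1, blue in H929) beside all 14905 genes tested (grey), for knockdown over its control, overexpression over its control and the control of overexpression (OE) over the control of knockdown (KD). Boxes are quartiles with the median and whiskers run from the 10th to the 90th percentile. The median of the 42 genes lies below the grey box in ARP1 knockdown (-0.61), inside it in H929 knockdown (0.05) and in overexpression, and above it between the controls (0.37 in ARP1 and 0.48 in H929).

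In every role class most genes were higher in the control of overexpression in both lines. All 11 small subunit processome genes were higher in the control of overexpression in both lines, with a fitted median of 0.51, and so were all 6 abundant nucleolar proteins, with a fitted median of 0.39. NCL had 461 FPKM in the control of overexpression of ARP1 and 461 in that of H929, against 242 and 264 in the controls of knockdown of ARP1 and H929 (log2 fold change 0.86 ± 0.20 SE, adjusted p = 0.332). NOP56 had 88.9 FPKM in the ARP1 control of overexpression against 62.6 in the control of knockdown, and 98.3 in the H929 control of overexpression against 62.2 in the control of knockdown (0.57 ± 0.18 SE, adjusted p = 0.38). In both genes the 2 controls of overexpression lay above both controls of knockdown. DDX21, which acts in transcription by RNA polymerase I and in rRNA processing, had 145 FPKM in the ARP1 control of overexpression against 113 in the control of knockdown, and 156 in the H929 control of overexpression against 95.1 in the control of knockdown (0.53 ± 0.14 SE, adjusted p = 0.363). GAR1 was at 0.53 ± 0.16 SE (adjusted p = 0.38) and POLR1C at 0.51 ± 0.16 SE (adjusted p = 0.389). EBNA1BP2 and NOP10 were the exceptions of the fit, at -0.15 and -0.02, and FBL and POLR1B stood near 0, at 0.04 and 0.02.

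**Figure D4:**
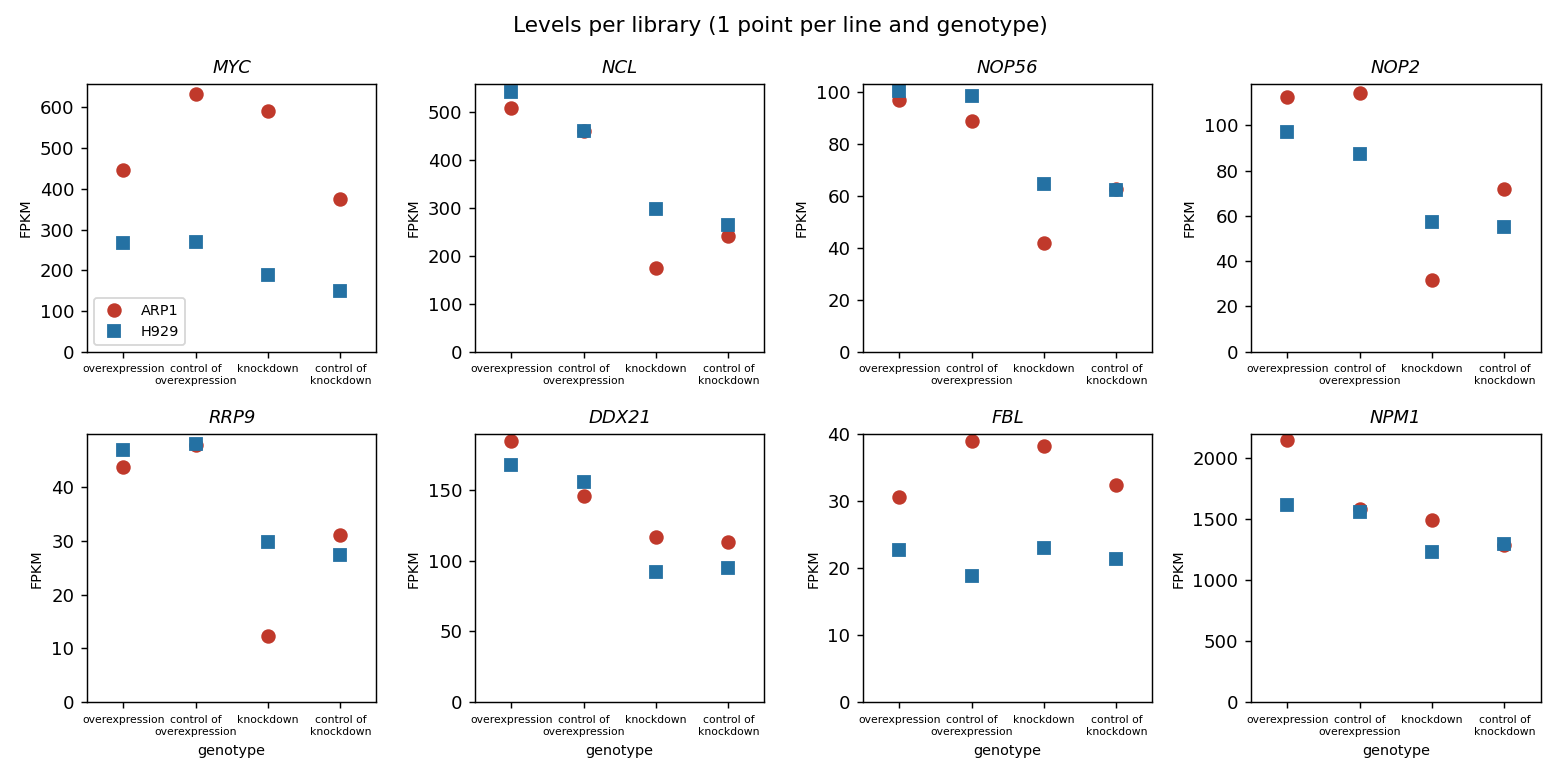
FPKM of MYC and of 7 ribosome biogenesis genes by genotype (1 point per line and genotype, ARP1 as red circles and H929 as blue squares, each axis from 0). NCL, NOP56, NOP2, RRP9 and DDX21 are higher in overexpression and its control than in knockdown and its control in both lines, NPM1 likewise by less, and FBL separates the lines instead, ARP1 lying above H929.

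Set against the other control of the same line, overexpression had a fitted median of 0.41 (-0.02 over all genes) with 41 of 42 values above 0. None of the 42 was called (limma, 0.0% of all genes). At an unadjusted p under 0.05 there were 18 of the 42 (14.6% of all genes). Knockdown against the control of overexpression had a fitted median of -0.67 (0.0007 over all genes) with 41 of 42 values below 0. Of the 42, 35 had an unadjusted p under 0.05 (15.8% of all genes) and 1 was called, WDR74 at -1.67 (2 of all genes, 0.0134%). The difference between the effect of overexpression and that of knockdown had a median of 0.35 (0.002 over all genes) with 38 values above 0. In it 0 of the 42 were called (limma, adjusted p under 0.05, against 2 of all genes, 0.0134%), with 1 gene, EBNA1BP2, at an unadjusted p under 0.05 (7.98% of all genes). Without the ARP1 library labelled knockdown, the median of this difference was 0.02, with 23 values above 0 and 19 below.

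WDR74, a large subunit assembly factor, gave the only call between the controls, and its value came mostly from a short transcript. Its log2 fold change was 1.51 ± 0.12 SE (adjusted p = 0.0165), with 664 FPKM in the ARP1 control of overexpression against 227 in the control of knockdown, and 668 in the H929 control of overexpression against 238 in the control of knockdown. Overexpression itself had 575 FPKM in ARP1 and 525 in H929, and the libraries labelled knockdown 202 in ARP1 and 215 in H929, so the arms do not overlap. Of the 7 WDR74 transcripts, WDR74-208 (548 nt, 83.8% of the summed level) and 1 further transcript share exon sequence with RNU2-2P, a locus of the U2 small nuclear RNA family. These 2 transcripts summed to 516, 609, 169 and 175 FPKM in ARP1 overexpression, its control, the library labelled knockdown and its control, and to 438, 589, 150 and 180 FPKM in the same genotypes of H929. The other 5 summed to 59.3, 54.7, 33.0 and 52.0 FPKM in ARP1 and 87.7, 78.8, 64.8 and 58.0 FPKM in H929 in that order of genotypes. Without transcripts whose exons overlap a small RNA gene, an alternative added after seeing the data, WDR74 was at 0.25 between the controls (adjusted p = 0.662). In that fit 0 of the 42 genes were called between the controls (0.047% of all genes). Between the lines 3 of the 42 were called there (27.0% of all genes), WDR74 among them, lower in ARP1 at -0.55 ± 0.14 SE (limma, adjusted p = 0.0285). RNU2-2P is annotated on the strand of WDR74, so reads of these genes cannot be told apart.

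**Figure D5:**
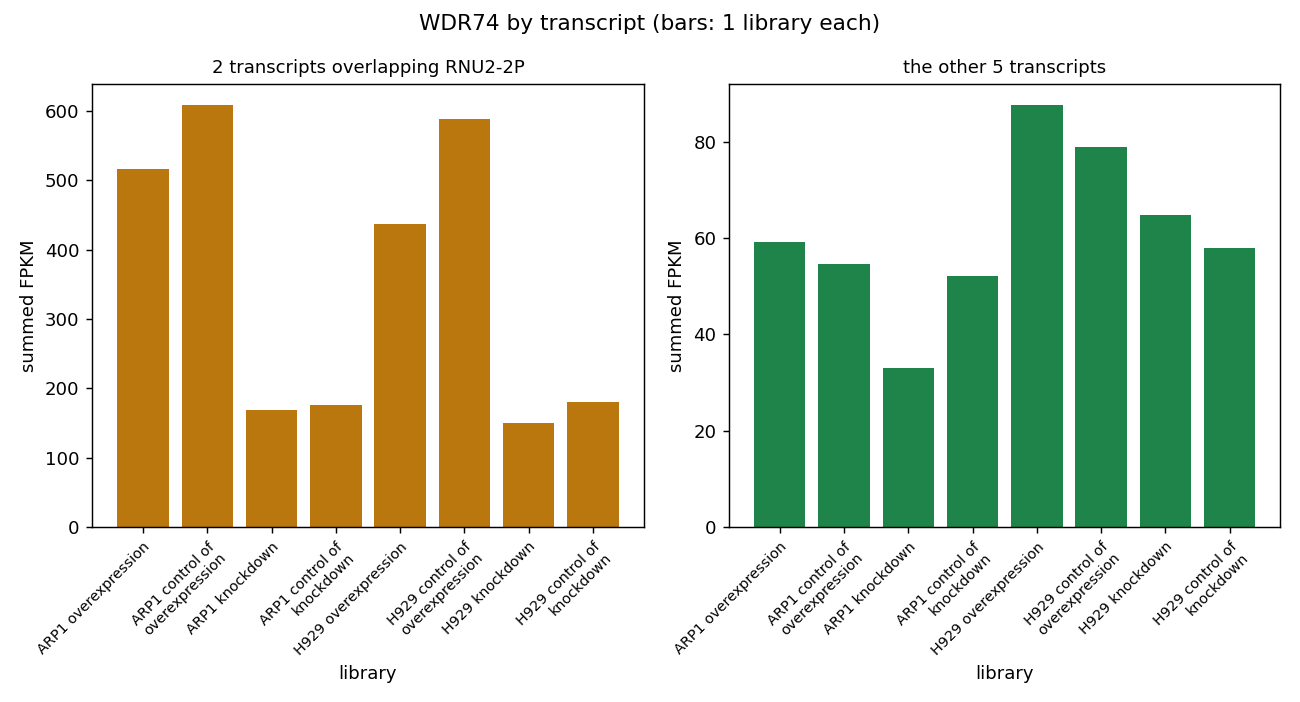
Summed FPKM of the 2 WDR74 transcripts that overlap RNU2-2P (left) and of the other 5 (right) in the 8 libraries, 1 bar per library. On the left the overexpression arm lies at 438 to 609 and the knockdown arm at 150 to 180, while on the right the bars run from 33.0 to 87.7 and the arms differ less.

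The lines were compared as ARP1 minus H929. Of the 42 genes, 2 passed (limma, adjusted p under 0.05), against 27.1% of all genes, 6 had an unadjusted p under 0.05 (41.1% of all genes), and the median was -0.05 (0.00 over all genes). FBL was higher in ARP1, with 30.6, 39.0, 38.3 and 32.5 FPKM in ARP1 overexpression, its control, the library labelled knockdown and its control, against 22.7, 18.9, 23.0 and 21.4 FPKM in the same genotypes of H929 (log2 fold change 0.68 ± 0.12 SE, adjusted p = 0.0098). It was the only gene of the 42 whose 4 ARP1 libraries all lay above the 4 of H929 (13.3% of all genes), and 0 had all 4 below (13.7% of all genes). GAR1 was lower in ARP1 (-0.42 ± 0.12 SE, adjusted p = 0.037), with 113, 93.6, 50.7 and 68.8 FPKM in ARP1 overexpression, its control, the library labelled knockdown and its control against 147, 121, 87.2 and 78.0 FPKM in the same genotypes of H929. The GAR1 levels of the lines overlap. Without the ARP1 library labelled knockdown, 8 of the 42 were called (27.1% of all genes in that fit). With no filter on low values neither gene passed (adjusted p = 0.0546 for FBL and 0.115 for GAR1), and WDR74 did not pass between the controls (adjusted p = 0.0784).

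FBL and NOP10 also moved least with the rest. Across the 8 libraries, centred by line, the Pearson correlation of a gene with the median of the others was 0.99 for UTP20, DDX10, NOP2, NOP56 and DDX18, and -0.36 for FBL, 0.41 for NOP10, 0.63 for NPM1, 0.71 for PPAN and 0.78 for DDX21. These are descriptions over 8 libraries that all genes share. NOP10 had 56.4 FPKM in the ARP1 library with the knockdown label against 86.1 in its control, and 91.1 in the H929 library labelled knockdown against 75.7 in its control. In overexpression it had 73.3 FPKM in ARP1 against 79.2 in its control, and 70.8 in H929 against 80.3 in its control. The H929 library labelled knockdown was the highest of all 8 for NOP10, and the arms overlapped in both lines.

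MYC, known to drive many of these genes, had 446 FPKM in ARP1 overexpression, 634 in its control, 591 in the library labelled knockdown and 375 in its control, and 267, 270, 188 and 149 FPKM in the same genotypes of H929. In ARP1, MYC was thus higher in the library labelled knockdown than in its control while 39 of the 42 genes were lower there. Its ARP1 levels did not separate the arms, whereas in H929 the overexpression arm was higher for MYC too. The differences did not pass for knockdown (log2 fold change 0.49 ± 0.21 SE, adjusted p = 0.549) or between the controls (0.81 ± 0.21 SE, adjusted p = 0.346), and ARP1 was above H929 (1.23 ± 0.15 SE, adjusted p = 0.00297). The part of MYC in the levels of the 42 genes was not tested. In ARP1 knockdown, genes with CACGTG in the window had a median of -0.80 (15 genes) and those without it -0.57 (19 genes). The order was reversed in H929 knockdown, at 0.099 with the motif and 0.057 without it. Between the controls the medians were 0.38 with the motif and 0.42 without it in ARP1, and 0.46 and 0.52 in H929. The ranges of the 2 sets overlapped widely. In the MYC network (12 genes tested), the fitted knockdown median was 0.12, with 9 values above 0 and 3 below. Both lines gave a higher value for 6 of these genes (27.2% of all genes) and a lower value for 0 (28.9% of all genes). Among the 6 were MYC itself, at 0.66 in ARP1 and 0.33 in H929, and MXD4 and MNT, which are antagonists of MYC. They were named for having the largest fitted differences of the list in overexpression or knockdown. MXD4 was higher by 0.66 in ARP1 and 0.45 in H929 (fitted 0.56 ± 0.16 SE, adjusted p = 0.511), and MNT by 0.81 in ARP1 and 0.27 in H929 (fitted 0.54 ± 0.20 SE, adjusted p = 0.538).

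Other genes of the pathway came from lists that do not hold the 42. None of their genes was called in overexpression or knockdown (limma, adjusted p under 0.05). The 34 tested small subunit factors had ARP1 and H929 medians of -0.43 and -0.01 for knockdown, with 3 genes lower and 0 higher at an unadjusted p under 0.05. The 44 large subunit factors had medians of -0.40 and 0.01, with 2 lower and 1 higher. At that p, 4.72% of all genes were lower and 4.42% higher. For 12 further RNA polymerase I factors the medians were -0.28 and -0.13, with 4 lower and 0 higher at the same p. Among those, CD3EAP, a polymerase I subunit, had 2.51 FPKM in the ARP1 library with the knockdown label against 6.26 in its control, and 3.48 in the H929 library labelled knockdown against 4.41 in its control. BRIX1, a large subunit factor, was lower in the libraries labelled knockdown of both lines, at 18.7 against 35.3 FPKM in ARP1 and 30.3 against 40.7 FPKM in H929 (limma estimate -0.65 ± 0.16 SE on the log2 scale, adjusted p = 0.494). GNL2 was at 27.4 against 57.0 FPKM in ARP1 and 48.5 against 55.3 FPKM in H929. Between the controls the fitted medians were 0.32 for small subunit factors, 0.25 for large subunit factors, 0.13 for polymerase I factors, 0.32 for 12 snoRNP assembly factors and 0.08 for 17 exosome and trimming factors. Most exosome and trimming genes were lower in knockdown, with 14 of 17 fitted values below 0. Of these 17 genes, 11 were lower in both lines (28.9% of all genes) and 1 was higher in both (27.2% of all genes). EXOSC4 was at -1.28 in ARP1 and -0.29 in H929, and EXOSC8, the 1 higher in both, at 0.76 in ARP1 and 0.24 in H929. The fitted knockdown medians were -0.28 for 17 metabolic and translation targets of MYC and -0.02 for 10 genes of the 5S particle and the p53 loop. At an unadjusted p under 0.05, 1 gene was higher in each list (4.42% of all genes) and 1 lower in the MYC target list (4.72% of all genes).

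Several of the 42 genes have annotated snoRNA genes within their span on the same strand, and whether these lie in introns was not checked. They number 6 in GNL3, 5 in NOP56, 4 in NOP58, 3 each in NCL and WDR43, 2 in PPAN and 1 in POLR1C. Some of those in GNL3 and NOP58, and the 1 in POLR1C, carry only a family number as name. The share of all tested genes with such a gene is not given here. The 13 tested snoRNA host genes without a protein product did not share the ARP1 pattern: their medians for knockdown were 0.24 in ARP1 and 0.05 in H929. At an unadjusted p under 0.05, 2 of these 13 were higher (4.42% of all genes) and 0 lower (4.72% of all genes). ZFAS1 had 145 FPKM in the ARP1 library with the knockdown label against 69.3 in its control, and 66.5 in the H929 library labelled knockdown against 55.8 in its control. SNHG8 had 331 FPKM in the ARP1 library with the knockdown label against 236 in its control, and 260 in the H929 library labelled knockdown against 208 in its control. EPB41L4A-AS1 went opposite ways, with 70.1 FPKM in the ARP1 library with the knockdown label against 29.8 in its control, and 38.6 in the H929 library labelled knockdown against 51.1 in its control. All 7 of the protein-coding hosts had ARP1 ratios below 0, and the difference from the hosts without a protein was not tested. The table listed 181 transcripts of the 42 genes, all typed as protein-coding, and in 25 genes the leading transcript held at least 80% of the summed level. Leaving out snoRNA genes and RNU2-2P, another annotated gene overlaps 22 of the 42, and 10 have annotated pseudogenes named after them. The reads of these genes are uncertain, the more so as no source used here gives the strand.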

How the data were processed

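RNA-seq values of 8 libraries were used, 4 from each of 2 lines. The deposited table gives FPKM per transcript for each library. Per the submitters' processing notes, Bowtie 0.12.2, HISAT2 2.0 and StringTie 1.3.0 were used, and mm8, a mouse build, is named; the transcript IDs are human, and which human build was used is not stated in them. The labels' extraction text also speaks of an adipose type, while adipocyte markers were near 0. No source used here gives the number of reads per library, and counting intervals were therefore left out. Exact zeros (23.4% of values) can be failed estimates.

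Of 88209 transcripts, 87707 were matched to GENCODE 29 and 502 were not. FPKM was summed per gene, genes with at least 1 FPKM in at least 2 libraries were kept (14905), and log2(FPKM + 1) was fitted with limma 3.58.1 (R 4.3.3) on genotype and line with a mean-variance trend, with Benjamini-Hochberg adjustment over all genes tested, two-sided, at 0.05. Adding 1 understates the change of low genes. The line is the replicate and enters as a block because the labels give every genotype once in each line. The p-values reflect the spread among these libraries alone, which the labels do not tie to separate cultures. Of the scripts, only the limma fit was tested on simulated data, for the knockdown comparison alone and with the same shift in both lines.

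The members and the gene lists were chosen with earlier results of these data known. Members picked by rule for closer description were the 2 of each role class with the highest mean and members past the threshold. For overexpression and knockdown, up to 6 members per direction with the same sign in both lines were added. Some of these were described by their levels in the libraries compared and others mainly by log2 ratios. Other genes described closely were chosen after their values were seen. From the other lists, up to 3 genes each with the largest fitted differences were taken. Alternatives changed the pseudocount, filter, scaling, block, trend, control, transcript set and libraries. Leaving out transcripts that overlap small RNA genes and testing protein-coding genes alone were added after seeing the data. Transcript types could not be compared, since every listed transcript of the members is typed as protein-coding. Promoters were taken from RefSeq (GRCh38.p14).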

Additional observations from a re-analysis of the deposited data

Results flagged for a closer look

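Within a line, the 4 libraries of each of the 42 genes were searched for a single library far from the other 3 (Dixon's ratio of the gap to the range, at its 95% critical value), and chance flags about 1 in 20 such groups. Over the 42 genes in each of 2 lines, 3 groups were flagged, which is not above that chance share. UTP4 in ARP1 reached 0.884 and NIP7 in ARP1 reached 0.928, both for a low library labelled knockdown. TCOF1 in H929 reached 0.907 for a high control of overexpression.

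Knockdown over its control had opposite signs in the lines for the median and for 26 of the 42 genes, and these differences were not tested. The median log2 ratio differed by -0.66, ARP1 minus H929 (ARP1 -0.61, H929 0.05). In all of the 26 but NPM1 and DDX21, ARP1 was below 0 and H929 above. Among the snoRNP core, nucleolar and polymerase I genes, ARP1 minus H929 was -0.62 for NOP56, -0.59 for GAR1, -0.87 for NOP10, -0.64 for NCL, -0.55 for GNL3, -0.81 for POLR1A and -0.41 for POLR1C. Among the small subunit genes it was -0.56 for WDR43, -0.91 for WDR3, -0.96 for UTP20, -0.76 for UTP15, -1.40 for RRP9, -0.48 for NOP14, -0.63 for NAT10 and -0.83 for DDX10. Among the large subunit genes it was -0.86 for PES1, -0.58 for WDR12, -1.21 for NOP2, -1.29 for NOP16, -0.81 for RRS1, -0.57 for DDX18, -0.50 for PPAN, -1.28 for MRTO4 and -0.57 for NLE1. NPM1 and DDX21 went the other way, by 0.285 and 0.0864. The snoRNA host EPB41L4A-AS1 also did, by 1.60 (ARP1 1.20, H929 -0.39).

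Between the controls, 5 of the 42 genes had opposite signs in the lines, and these differences were not tested either. ARP1 minus H929 was 0.43 for FBL, -0.20 for NOP10, -0.0532 for POLR1B, -0.57 for RRP1B and -0.34 for EBNA1BP2.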

How the results depend on the processing

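Values follow the contrasts overexpression, knockdown, overexpression effect minus knockdown effect, controls and ARP1 minus H929, whose counts of called genes were 1, 2, 2, 8 and 4035. With no filter on low values the counts were 5, 8, 12, 12 and 1924, and 0 of the 42 genes were called between the controls and between the lines. With a pseudocount of 0.1, knockdown and the difference of effects had 1 each. Knockdown had 0 at 5 FPKM, 1 with TPM-like scaling and 5 with no trend, and 1 transcript when single transcripts were tested. Overexpression, knockdown and the difference of effects had 0 each with protein-coding transcripts alone, without transcripts under 300 nt and with protein-coding genes alone, and the controls 4, 3 and 4. The single-transcript fit tested 36791 transcripts, with each of the 42 genes standing as its leading transcript, so its counts are of transcripts. It gave 33 transcripts and a median of 0.30 between the controls, and 2390 transcripts and 1 of the 42 between the lines. With no trend, 0 of the 42 were called between the controls and 1 between the lines. Without the replicate block (the pairing by line), knockdown had 0 genes, the controls 2 with 0 of the 42, and the lines 1 of the 42. Against the other control, overexpression had 0 genes and a median of 0.41, and knockdown 1 of the 42. Without small-RNA transcripts, 0 of the 42 were called between the controls, and WDR74 in overexpression reversed to 0.13. Leaving out 1 library gave 1 to 3, 0 to 837, 0 to 5, 1 to 11 and 1830 to 4039 genes, 0 to 15 of the 42 in knockdown, 0 to 1 between the controls and 1 to 8 between the lines. The medians ran from -0.039 to 0.12, -0.53 to 0.02, 0.02 to 0.63, 0.29 to 0.58 and -0.12 to 0.08. In overexpression LYAR ran from -0.0042 to 0.54, DDX10 from -0.0051 to 0.32 and PPAN from -0.50 to 0.0034. The causes were not tested.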
